A study of Mus musculus with 2 samples.

Results

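Heat shock proteins and crystallin chaperones were followed through the cells of the mouse retinal pigment epithelium (RPE) and of the tissue around it, with and without doxorubicin (Dox), an anthracycline drug that damages DNA. The 10 genes were given by symbol and all were found among the 32285 genes of the files: the small heat shock proteins Cryab, Hspb1, Hspb6 and Hspb8, the HSP70 proteins Hspa1a, Hspa1b and Hspa8 with the related HSP110 protein Hsph1, the HSP40 protein Dnajb1 and the HSP90 protein Hsp90aa1. Both groups were C57BL/6J mice, 3 months of age, with no genetic change named. The Dox group received 1 µl of Dox at 100 ng/µl under the retina and the control group 1 µl of PBS, and cells were taken 7 days later. The paper states that Dox injected this way usually reaches only a part of the RPE area. RPE cells that Dox did not reach were not told apart here. Each group was 1 library pooled from 10 eyes of 5 mice, so that no difference between Dox and control has a replicate check, and no test between them was made. The layer below the retina (RPE, choroid and sclera) was dissociated with papain for 30 minutes at 37 °C in both groups, and no cell in these data was measured without that step.

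Chaperones bind proteins that are unfolded or partly folded and keep them from aggregating. Small heat shock proteins hold such clients without using ATP, HSP70 proteins refold them in cycles of ATP hydrolysis that HSP40 proteins start and HSP110 proteins help to reset, and HSP90 proteins complete the folding of kinases, receptors and other signalling proteins. Many of these genes are switched on within minutes by heat or other protein damage through heat shock factor 1, which binds repeats of GAA and TTC in their promoters, while Hspa8 is the constitutive HSP70 of most cells. In the eye, Cryab (alpha B crystallin) is best known as a structural chaperone of the lens, and it is also made in the RPE.

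The promoters of Hspa1a, Hspa1b, Hspb1 and Hsph1 are shown. The counts of Hspa1a and Hspa1b have to be read together, and each of these promoters holds the same short element. The windows of Hspb6, Hspb8 and Dnajb1 are not shown, and those of Dnajb1 did not hold it. A promoter window of 300 bases, from 250 before the start of transcription to 50 after it, was at hand for 7 of the 10 genes from RefSeq on GRCm38.p6, and was missing for Cryab, Hspa8 and Hsp90aa1. In each line the capitals mark every match to GAANNTTC or TTCNNGAA, the smallest inverted pair of heat shock units, and each of these forms reads the same on both strands. The windows are Hspa1a on the minus strand at chr17:34972107-34972406, Hspa1b on the minus strand at chr17:34959189-34959488, Hspb1 on the plus strand at chr5:135887669-135887968 and the outermost of the 2 windows of Hsph1 on the minus strand at chr5:149636287-149636586.
Hspa1a: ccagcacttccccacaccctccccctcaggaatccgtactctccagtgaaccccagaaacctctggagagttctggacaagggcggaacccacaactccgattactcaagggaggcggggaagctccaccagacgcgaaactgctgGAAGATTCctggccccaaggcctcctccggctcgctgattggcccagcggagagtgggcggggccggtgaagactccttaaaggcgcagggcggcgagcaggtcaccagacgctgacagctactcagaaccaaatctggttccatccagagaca
Hspa1b: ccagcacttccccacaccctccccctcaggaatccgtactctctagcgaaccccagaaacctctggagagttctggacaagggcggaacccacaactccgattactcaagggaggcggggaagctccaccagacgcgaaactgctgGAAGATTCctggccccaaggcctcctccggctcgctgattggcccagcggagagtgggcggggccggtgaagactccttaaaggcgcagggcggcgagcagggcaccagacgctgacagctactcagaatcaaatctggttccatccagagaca
Hspb1: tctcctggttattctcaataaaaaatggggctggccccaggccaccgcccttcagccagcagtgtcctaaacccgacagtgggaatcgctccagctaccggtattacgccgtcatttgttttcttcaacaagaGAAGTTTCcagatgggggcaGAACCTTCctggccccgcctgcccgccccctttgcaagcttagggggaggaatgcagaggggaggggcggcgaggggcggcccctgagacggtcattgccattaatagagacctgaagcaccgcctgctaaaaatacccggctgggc
Hsph1: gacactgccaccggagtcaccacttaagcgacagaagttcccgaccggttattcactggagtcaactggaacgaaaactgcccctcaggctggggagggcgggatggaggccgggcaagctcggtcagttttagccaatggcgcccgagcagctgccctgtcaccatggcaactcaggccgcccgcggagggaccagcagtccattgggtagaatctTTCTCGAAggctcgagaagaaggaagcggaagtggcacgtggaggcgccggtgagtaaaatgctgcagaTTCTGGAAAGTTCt

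The Hspa1a and Hspa1b windows differed at 4 of 300 bases, and each held 1 match, 104 bases before its start. Hspb1 held 2 matches, 117 and 97 bases before its start. Hsph1 held 3 matches, 1 of them 33 bases before the start and 2 overlapping ones 37 and 42 bases after it, which together make the form with 3 units. A match was also found in 1 of 2 windows of Hspb6, 120 bases before the start, and in the window of Hspb8, 3 bases after the start, while the 2 windows of Dnajb1 held none. Counted by window, 7 of the 10 windows of these genes held a match, 2 of them overlapping windows of Hsph1, against 15.1% of all 32851 windows in the table. A match describes these letters only, and its absence says nothing about the factor.

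Because these libraries read the 5′ end of transcripts, the likeness of Hspa1a and Hspa1b extends to what was counted. The first 500 bases of the 2 transcripts were 99.2% identical in GENCODE vM21, and 38.1% of all stretches of 150 bases in the Hspa1a transcript occurred unchanged in the Hspa1b transcript. The split of UMIs between Hspa1a (chr17:34969190-34972156) and Hspa1b (chr17:34956436-34959238) is therefore uncertain, and reads that fit both genes may have been counted for neither. Cryab (chr9:50751325-50756636, plus strand) overlaps Hspb2 on the opposite strand over 1030 bases, Hspa1a overlaps Gm20481 on the opposite strand over 2225 bases, and Hspb6 (chr7:30552178-30555443, plus strand) overlaps short ends of Proser3 and Lin37.

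Expression is given as CPM, the UMIs of a gene per 1000000 UMIs of the same group of cells, where a UMI marks 1 captured RNA molecule. After quality filters the control library held 20180 cells and 115611226 UMIs and the Dox library 15426 cells and 99273166 UMIs. The 95% intervals beside CPM and ratios cover counting error of the summed UMIs only, not the variation between cells or between mice. Those beside shares of cells count each cell as a separate draw. Cells of 1 pooled library are not replicates, so these intervals do not cover the variation between mice either. RPE cells were those with at least 10 UMIs of Rpe65, the isomerohydrolase of the visual cycle. There were 1526 of them in the control library (median 16014 UMIs per cell) and 1630 in the Dox library (median 18116), and 3 of their barcodes occurred in both libraries. Of these cells 87.1% and 86.8% lay in the cluster led by RPE genes, and all 11 RPE markers were detected in them, at a summed 99709 and 100787 CPM. Rpe65, by which the cells were chosen, is 1 of the 11. Detection alone does not mark RPE cells, since 10 RPE markers also reached 10 CPM in the fibroblast-like cluster led by Myoc. Of the cells under 10 Rpe65 UMIs, 94 in control and 83 in Dox lay in the RPE-like cluster. They entered no group but were counted among all cells outside the RPE. The other cells formed 10 groups, which were named from markers or left unnamed. The 2 largest were fibroblast-like cells led by Myoc, with 11113 control and 8300 Dox cells, and melanocyte-like cells, with 2014 and 2004. The melanocyte-like cells were shallow, with red blood cell gene Hbb-bs leading their genes. Rpe65 was also seen outside the RPE cells. Of the Myoc-led fibroblast-like cells, 60.0% in control and 74.8% in Dox held at least 1 UMI of it, at 197 and 270 CPM. Whether this came from free RNA, doublets or the cells themselves was not tested.

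Cryab, Hspb6 and Hsp90aa1 were the 3 members with more CPM in RPE cells than in all cells outside the RPE, in both libraries. The other 7 members were lower in RPE cells in both libraries. Among all genes with at least 50 UMIs over both groups, 34.8% in control and 36.9% in Dox were higher in RPE cells at any fold. The count of 3 of 10 thus lay near the share of all genes, and the members are described singly, by role.

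**Figure D1:**
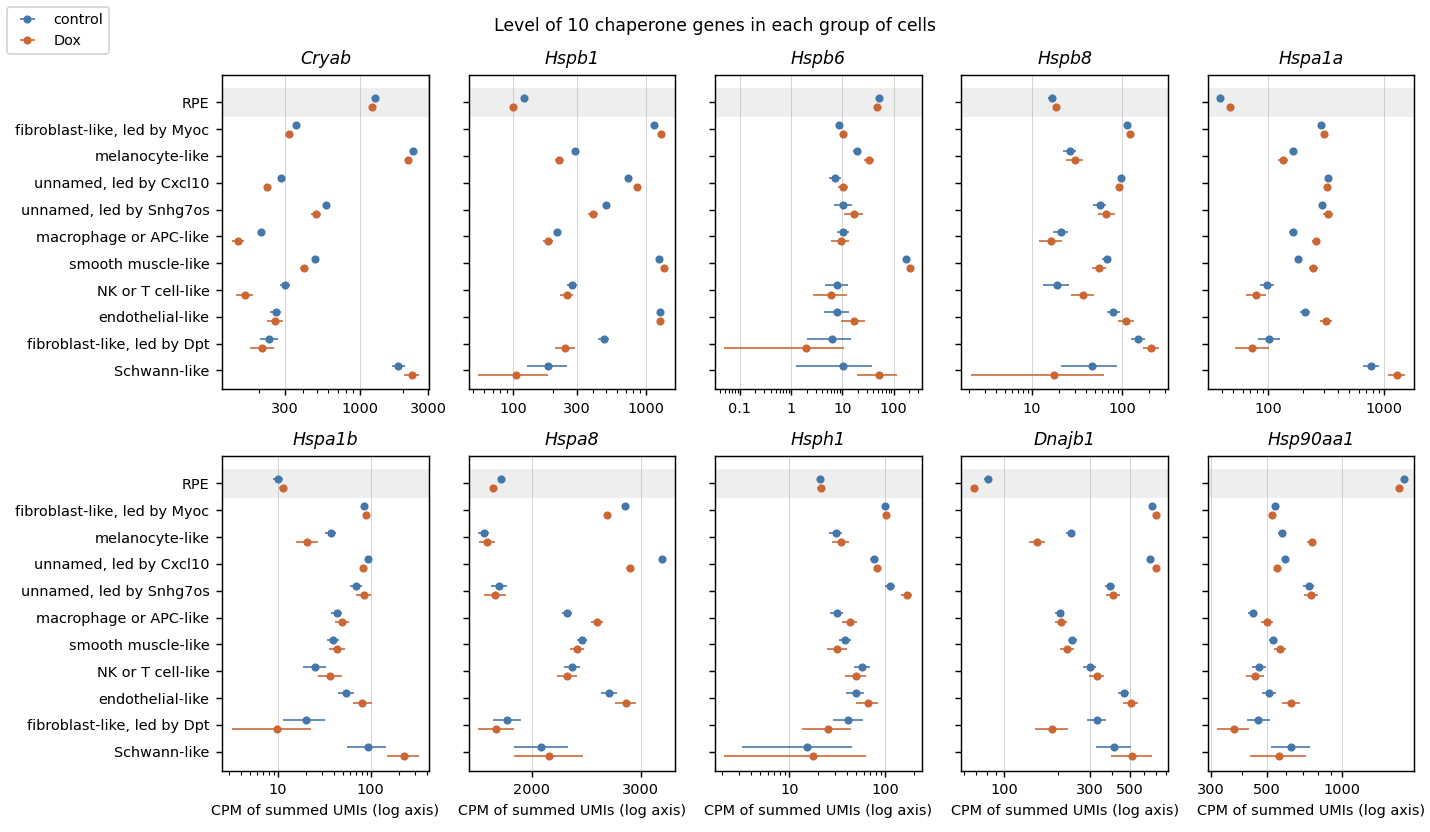
Levels of the 10 members in RPE cells and in the 10 other groups of cells, as CPM on a log axis, with 1 point for the control and 1 for the Dox library and 95% counting intervals as bars. Hsp90aa1 was at 1759 and 1679 CPM in RPE cells, above every other group, while Hspb1 and Dnajb1 were lowest there.

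Among the small heat shock proteins, Cryab was at 1281 CPM in control (1268 to 1295) and 1217 CPM in Dox RPE cells (1205 to 1229). Outside the RPE it averaged 481 and 392 CPM, so that RPE cells were 2.66-fold higher in control and 3.10-fold higher in Dox. A UMI of Cryab was seen in 95.9% of control and 96.4% of Dox RPE cells. RPE cells had rank 3 of 11 groups in both libraries, below the melanocyte-like cells, with 2338 CPM in control and 2161 in Dox, and the Schwann-like cells, with 1861 and 2308. In Dox the intervals of those 2 groups overlapped, so their order was not resolved by counting. The macrophage or antigen-presenting cell-like group was lowest, at 206 and 141 CPM, and in both libraries its interval overlapped that of the next group up.

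Hspb6, which is abundant in muscle, was at 51.4 CPM in control (48.7 to 54.2) and 47.3 CPM in Dox RPE cells (44.9 to 49.7). RPE cells were 2.78-fold and 2.61-fold above the cells outside the RPE. The smooth muscle-like cells were highest, at 175 CPM in control and 210 in Dox, and RPE cells came next in control. In Dox the Schwann-like cells stood between them at 52.5 CPM, a value of 6 UMIs whose interval overlapped that of the RPE cells. In the Myoc-led fibroblast-like cells Hspb6 was at 8.51 and 10.2 CPM.

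Hspb1 (HSP27), which also binds actin filaments, had the opposite distribution. It was at 121 CPM in control (117 to 125) and 98.7 CPM in Dox RPE cells (95.3 to 102), against 959 and 1107 CPM outside the RPE, so that the other cells were 7.92-fold and 11.2-fold higher. The highest groups were the endothelial-like cells, at 1275 and 1277 CPM, the smooth muscle-like cells, at 1258 and 1358, and the Myoc-led fibroblast-like cells, at 1138 and 1300. RPE cells were the lowest of the 11 groups in both libraries, and in Dox the Schwann-like cells next to them, at 105 CPM from 12 UMIs, had an overlapping interval.

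Hspb8, which works with the cochaperone Bag3 in clearing misfolded proteins, was at 16.8 CPM in control (15.3 to 18.4) and 18.6 CPM in Dox RPE cells (17.1 to 20.2). Outside the RPE it was 5.57-fold and 5.72-fold higher. The Dpt-led fibroblast-like cells were highest, at 151 and 210 CPM, followed by the Myoc-led ones, at 112 and 123. The low end of the order was not resolved: the RPE cells overlapped the NK or T cell-like cells in control and the Schwann-like cells in Dox.

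Of the HSP70 group, the stress-inducible Hspa1a was at 38.6 CPM in control (36.2 to 41.0) and 46.5 CPM in Dox RPE cells (44.2 to 49.0), from 1015 and 1452 UMIs. It was 6.71-fold and 6.22-fold higher outside the RPE, and RPE cells were lowest of 11 groups in both libraries without overlap of their neighbour. The Schwann-like cells were highest, at 775 and 1285 CPM, although they were only 60 and 32 cells. The cells led by Cxcl10 were at 325 and 321 CPM and the Myoc-led fibroblast-like cells at 283 and 304. Hspa1b, the near copy, was at 10.1 CPM in control (8.97 to 11.4) and 11.4 CPM in Dox RPE cells (10.2 to 12.6), and was 7.33-fold and 7.04-fold higher outside the RPE.

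Hspa8, the constitutive HSP70, differed least between RPE and other cells. It was at 1783 CPM in control (1767 to 1799) and 1735 CPM in Dox RPE cells (1720 to 1749), with log2 ratios over the other cells of -0.59 and -0.57. A UMI was seen in 98.6% and 98.9% of RPE cells. The unnamed cells led by Cxcl10 were highest, at 3249 and 2877 CPM, and RPE cells had rank 9 of 11 in control and 10 in Dox. In Dox the interval of the Cxcl10-led cells overlapped that of the endothelial-like cells. The interval of the RPE cells overlapped those of both neighbours in each library, so these ranks were not resolved. Hsph1, the nucleotide exchange factor of HSP70, was at 21.1 CPM in control (19.4 to 22.9) and 21.2 CPM in Dox RPE cells (19.6 to 22.9). Other cells were 3.92-fold and 4.26-fold higher, with the unnamed cells led by Snhg7os at 111 and 167 CPM.

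Dnajb1, the HSP40 partner that delivers clients to inducible HSP70, was at 81.2 CPM in control (77.8 to 84.7) and 68.4 CPM in Dox RPE cells (65.5 to 71.3). It was 6.94-fold and 9.06-fold higher outside the RPE, and RPE cells were lowest of the 11 groups in both libraries, with no overlap. The Myoc-led fibroblast-like cells were at 669 and 703 CPM and the Cxcl10-led cells at 645 and 705, values that overlapped in both libraries. Hsp90aa1, the stress-responsive cytosolic HSP90, was at 1759 CPM in control (1743 to 1775) and 1679 CPM in Dox RPE cells (1665 to 1693). RPE cells were 3.22-fold and 3.07-fold above other cells and had rank 1 of 11 groups in both libraries. The next group was the cells led by Snhg7os in control, at 734 CPM, and the melanocyte-like cells in Dox, at 755 CPM, and neither overlapped the RPE cells. The melanocyte-like cells also held 551 and 1450 CPM of Rpe65.

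RPE cells held RNA of fibroblast marker genes, and its amount lay close to the levels of several members. Whether it came from free RNA, doublets or the RPE cells themselves was not tested. The paper lists Dcn, Mgp and Lum among the markers of an RPE subpopulation. The 13 fibroblast markers summed to 1614 and 965 CPM in control and Dox RPE cells, with Kera at 0 in both, and to 20484 and 19546 CPM in the Myoc-led fibroblast-like cells. Each of the 11 markers with enough UMIs stood in RPE cells at 6.29 to 9.66% of its Myoc-led fibroblast-like level in control and at 2.96 to 6.63% in Dox. Hspb1 stood at 10.6% in control and 7.59% in Dox, and Dnajb1 at 12.1% and 9.72%. Both, like the markers, had a lower percentage in Dox. Hspa1b stood at 12.0% and 12.8%, between Hspb1 and Dnajb1 in control but with no decrease in Dox. Hspa1a stood at 13.7% and 15.3%, Hspb8 at 15.0% and 15.1%, and Hsph1 at 21.4% and 21.0%. Hspa8 stood at 63.0% and 65.7%, far above the markers. Hsp90aa1, Cryab and Hspb6 exceeded the fibroblast-like level, at 326%, 358% and 604% in control and 319%, 376% and 465% in Dox. The part of fibroblast RNA in the low members was not tested directly, but the values without the RPE cells that hold most of it are given below. Markers of other cells in RPE cells, in control and Dox, summed to 2858 and 1846 CPM for melanocytes, 510 and 340 for smooth muscle and 401 and 186 for macrophages, and to at most 93.3 CPM for each of the other lists.

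**Figure D2:**
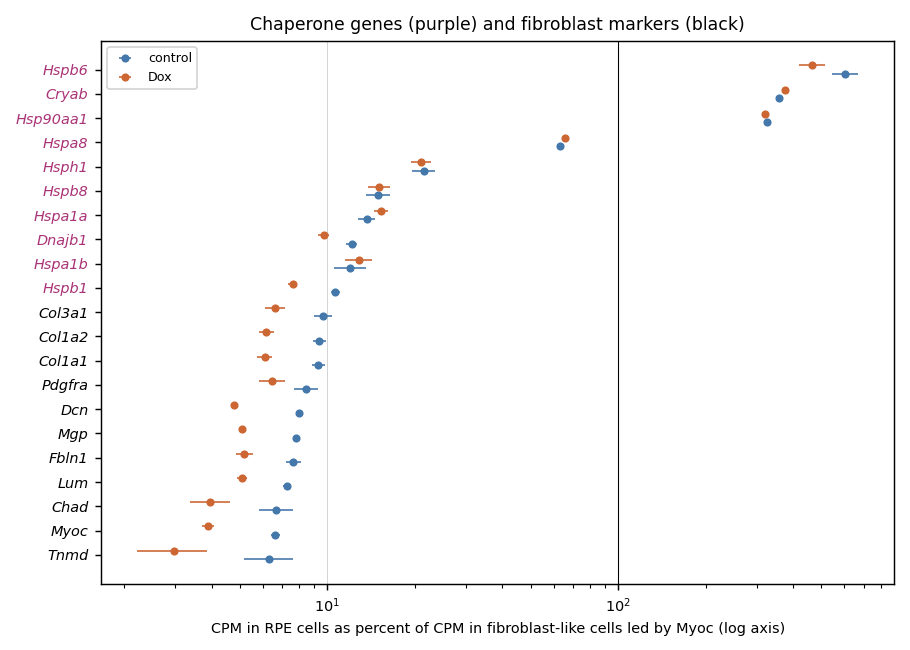
Level in RPE cells as a percentage of the level in Myoc-led fibroblast-like cells, on a log axis, for the fibroblast markers with enough UMIs and for the 10 members, in each library, with 95% counting intervals. The markers lay between 2.96% and 9.66%, Hspb1, Hspa1b and Dnajb1 next above those of their library, and Hsp90aa1, Cryab and Hspb6 above 300%.

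Between Dox and control, no member differed by 1.5-fold or more over all RPE cells, whether or not Dox had reached them. This was 0 of 10, against 6.58% of the 12774 genes with at least 50 UMIs over both libraries. The median log2 ratio of the members was -0.05, beside -0.01 for all genes. The largest increase was that of Hspa1a, at a log2 ratio of 0.27 (0.15 to 0.39). Hspb1 had the largest decrease, at -0.30 (-0.37 to -0.22), followed by Dnajb1, at -0.25 (-0.34 to -0.16). These 3 intervals left out 0, so the 2 libraries differed in them beyond counting error, though by less than the 1.5-fold limit. Hspb6 was at -0.12 (-0.23 to -0.01) and Cryab at -0.07 (-0.10 to -0.05), smaller differences whose intervals also left out 0. The intervals of Hspb8, at 0.15 (-0.03 to 0.33), of Hspa1b, at 0.17 (-0.07 to 0.40), and of Hsph1, at 0.01 (-0.16 to 0.17), included 0. Hspa8 and Hsp90aa1 had log2 ratios of -0.04 and -0.07, and the CPM intervals of each, given above, did not overlap between control and Dox. In the same cells Serpina3n, a gene of a serine protease inhibitor, stood at 79.4 CPM without and 1184 CPM with Dox.

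The summed fibroblast markers also differed between the libraries, so the ratios were taken again over the RPE cells that held under 500 CPM of them. This limit was chosen after the data had been seen. These were 971 of 1526 control and 1234 of 1630 Dox RPE cells, with 104 and 79.2 CPM of the markers. They are called cells with little fibroblast RNA, whatever the source of that RNA. In them the decreases of Hspb1 and Dnajb1 turned around: Hspb1 had 35.9 and 43.8 CPM in control and Dox, or 0.29 as a log2 ratio (0.14 to 0.43), and Dnajb1 33.7 and 39.4 CPM, or 0.23 (0.08 to 0.37). The direction of these 2 members in RPE cells therefore depended on which cells were taken. Hspa1a had 20.5 CPM in control cells (18.4 to 22.7) against 34.9 CPM in Dox cells (32.7 to 37.3), or 0.77 as a log2 ratio (0.59 to 0.95), and Hspa1b 4.57 against 7.34 CPM, or 0.68 (0.30 to 1.08). These 2 of 10 members passed 1.5-fold, against 4.82% of all genes, and since their reads overlap they are not separate evidence. Hspb8 and Hsph1 had log2 ratios of 0.33 each. The other 4 members were lower in Dox by less than 1.5-fold. Cryab was at 1298 and 1269 CPM, Hspb6 at 55.6 and 49.4, Hspa8 at 1729 and 1705 and Hsp90aa1 at 1867 and 1729. As log2 ratios Hspb6 was at -0.17 (-0.29 to -0.05), Hsp90aa1 at -0.11 (-0.13 to -0.09) and Cryab at -0.03 (-0.06 to -0.01). Hspa8 was at -0.02, with an interval that included 0.

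The higher Hspa1a of the Dox library in these cells was spread over many of them. A UMI was seen in 22.5% of the control (19.9 to 25.2%) and 32.1% of the Dox cells (29.5 to 34.8%), at median depths of 17131 and 20163 UMIs, and with each cell thinned to 2000 UMIs in 3.95% (2.81 to 5.38%) and 7.35% (5.95 to 8.95%). The 10 cells with most Hspa1a held 14.0% of its UMIs in control and 14.2% in Dox. For Hspa1b the thinned shares, 1.35% and 1.63%, had overlapping intervals. In the Serpina3n-low cells with little fibroblast RNA, Hspa1a had 20.8 against 32.1 CPM, or 0.63 as a log2 ratio (0.44 to 0.82), where 3.92% of genes passed 1.5-fold. Its background level there was not measured apart from expression, and the 2 libraries are 1 pool of mice each. The intervals of the shares rest on cells of those pools, which are not replicates of Dox or control.

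**Figure D3:**
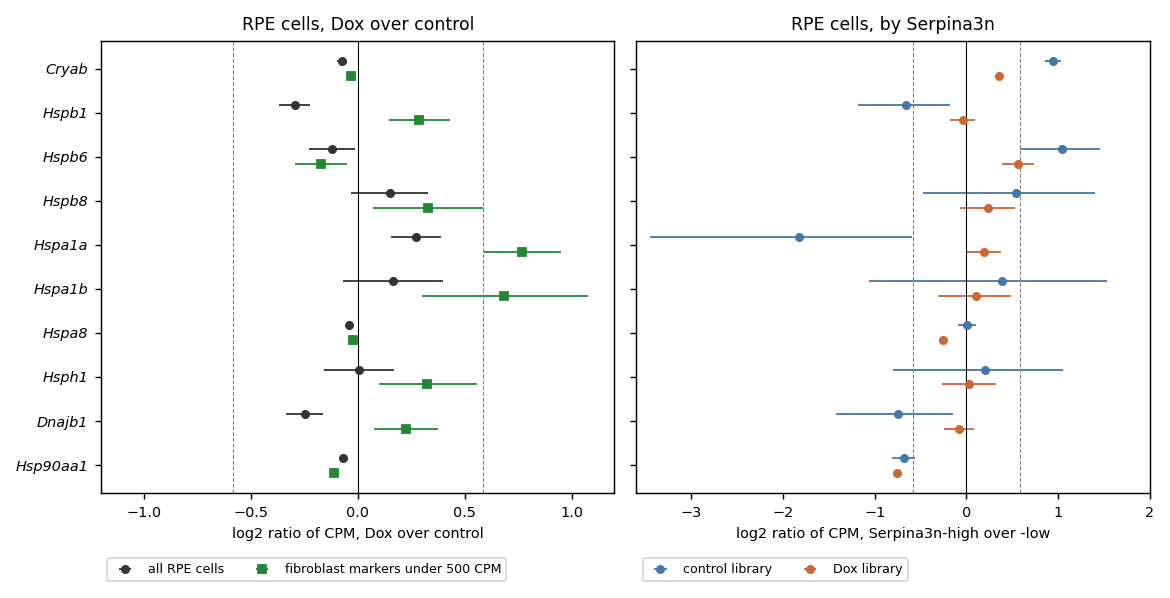
Log2 ratios of CPM of the 10 members in RPE cells, with 95% counting intervals and dashed lines at 1.5-fold; on the left Dox over control, in all RPE cells (circles) and in those with fibroblast markers under 500 CPM (squares), on the right Serpina3n-high over Serpina3n-low cells within each library. In all RPE cells the members lay between -0.30 and 0.27, in the cells with little fibroblast RNA Hspa1a and Hspa1b lay at 0.77 and 0.68, and Hsp90aa1 lay at -0.68 and -0.75 on the right.

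RPE cells were then split by Serpina3n at 1000 CPM. In control 15 cells (0.983% of RPE cells, 0.551 to 1.62%) were Serpina3n-high and in Dox 208 (12.8%, 11.2 to 14.5%). In control 8 RPE cells and in Dox 23 lay within 20% of the limit. The high cells were deeper than the low ones, with medians of 33954 against 15957 UMIs in control and 28244 against 16608 in Dox. Their median doublet score from Scrublet was higher too, at 0.303 against 0.133 in control and 0.141 against 0.089 in Dox. They also held less Rpe65, at 2544 against 5008 CPM in control and 1954 against 5499 in Dox. Fibroblast markers summed to 1743 CPM in high and 1612 in low cells of control, and to 382 and 1092 CPM in Dox. The part of depth, doublets and Rpe65 in the results below was not tested, while the values over the cells with little fibroblast RNA follow them.

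Within the Dox library, 1 of 10 members passed 1.5-fold between Serpina3n-high and Serpina3n-low cells, against 25.0% of 11662 genes. This was Hsp90aa1, at 1074 CPM in high cells (1047 to 1102) and 1810 CPM in low cells (1794 to 1827), a log2 ratio of -0.75 (-0.79 to -0.71). The control library had a like ratio, with 1102 CPM in high cells (1007 to 1203) and 1771 in low cells, a log2 ratio of -0.68 (-0.81 to -0.56). Hsp90aa1 was therefore lower in the high cells of both libraries, while the low cells of control and Dox differed by only 0.03 on the log2 scale. Its level in the high cells stayed above that of every group outside the RPE. Centred on the median of all genes the ratios were -0.57 in Dox and -0.50 in control, short of 1.5-fold, and in Dox thinned cells gave -0.50.

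Cryab and Hspb6 were higher in the Serpina3n-high cells. In control, Cryab had 2429 CPM in high (2288 to 2577) and 1261 CPM in low cells, or 0.95 as a log2 ratio (0.86 to 1.03). In Dox it had 1480 CPM in high (1448 to 1512) and 1160 CPM in low cells, or 0.35 (0.32 to 0.39). Hspb6 followed with 104 CPM in high (76.3 to 138) and 50.5 CPM in low cells of control, or 1.04 (0.59 to 1.46), and with 64.3 (57.8 to 71.3) and 43.6 CPM in those of Dox, or 0.56 (0.39 to 0.73). The direction was the same in both libraries and the size was smaller in Dox. The difference in size was not tested, and the control values rest on 15 cells. Over all genes the median log2 ratio of high over low cells was -0.19 in control and -0.18 in Dox.

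Only 15 control cells were Serpina3n-high, and the part of that small number in the share of genes that follows was not tested. In control, 6 of 10 members passed 1.5-fold between high and low cells, against 41.0% of 11582 genes. Besides Cryab, Hspb6 and Hsp90aa1 they were Hspb1, at 77.3 against 122 CPM (35 UMIs in high cells), Dnajb1, at 48.6 against 81.7 CPM (22 UMIs), and Hspa1a, with a log2 ratio of -1.82 (-3.45 to -0.60) from 5 UMIs. In Dox these 3 members hardly differed between high and low cells when all RPE cells were taken: Hspb1 was at 96.7 and 99.2 CPM, Dnajb1 at 65.4 and 69.0 and Hspa1a at 51.7 and 45.4. Hspa8 was at 1793 and 1782 CPM in high and low cells of control and at 1498 and 1786 in Dox. Hspb8, Hsph1 and Hspa1b stayed within 1.5-fold in both libraries when all RPE cells were taken. Without the highest doublet scores Hspb8 and Hspa1b passed in control, at 0.88 and 0.86.

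With little fibroblast RNA, 179 high and 1055 low cells remained in Dox, and more members were higher in the high cells. There 4 of 10 passed 1.5-fold, against 21.0% of genes. Hsp90aa1 was again lower in the high cells, at -0.81 as a log2 ratio (-0.85 to -0.77). Hspb1 now had 66.2 CPM in high and 38.6 CPM in low cells, or 0.78 (0.59 to 0.97), and Hspa1b 10.7 and 6.55 CPM, or 0.71 (0.22 to 1.18). Hspb8 had a log2 ratio of 0.68 (0.32 to 1.02) from 97 and 259 UMIs. Hspa1a, at 46.9 and 32.1 CPM, or 0.55 (0.32 to 0.77), and Dnajb1, at 47.5 and 37.4 CPM, or 0.34 (0.13 to 0.56), stayed under 1.5-fold. The ratios of these members thus depended on which cells were taken. Cryab, at 0.29 (0.25 to 0.33), and Hspb6, at 0.44 (0.25 to 0.63), kept their direction in Dox, with smaller ratios than over all RPE cells. Hsph1 and Hspa8 were at 0.44 and -0.24. In control 10 high cells were left and 7 of 10 members passed, against 43.4% of genes, with much counting noise. Of these, Hspa1a, Hspa1b, Hspb8 and Hsph1 rested on 1, 4, 6 and 8 UMIs in the high cells. The intervals of Hspa1b (-0.31 to 3.02), Hspb8 (-0.58 to 2.04) and Hsph1 (-0.24 to 1.99) included 0. Hspb1 and Dnajb1, from 10 and 8 UMIs, no longer passed, at -0.10 and -0.33. Cryab, at 0.82 (0.71 to 0.93), Hspb6, at 0.78 (0.18 to 1.32), and Hsp90aa1, at -0.64, still passed in control. Each of these ratios was smaller in size than over all RPE cells.

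Between Dox and control, the Serpina3n-low cells had 0 of 10 members past 1.5-fold, against 4.91% of 12617 genes. Among the high cells 3 of 10 passed, against 27.4% of 7669 genes. The control side was 15 cells, and the part of counting noise in that share was not tested. Cryab was lower in Dox, with a log2 ratio of -0.72 (-0.81 to -0.62), and so was Hspb6, at -0.69 (-1.13 to -0.22). Both fell short of 1.5-fold with no upper limit on genes, at -0.53 and -0.52, and Cryab also with the Serpina3n split at 2000 CPM, at -0.48. Hspa1a was higher, at 2.23 (0.99 to 3.86), a ratio that rests on 5 UMIs in control and 288 in Dox and that turned to -0.38 when each cell was thinned to 2000 UMIs.

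Outside the RPE 3 of the 10 groups held no member past 1.5-fold between the libraries and 7 held 1 to 3. None passed in the Myoc-led fibroblast-like cells (4.64% of all genes did), in the Cxcl10-led cells (4.24%) or in the smooth muscle-like cells (7.26%). In the Myoc-led fibroblast-like cells the log2 ratios ran from -0.15 for Cryab to 0.26 for Hspb6. Hspb1 and Dnajb1, lower in Dox over all RPE cells, were at 0.19 and 0.07 there. Hspa1a passed 1.5-fold upward in 3 groups: the Schwann-like cells, at 775 and 1285 CPM, a log2 ratio of 0.73 (0.39 to 1.07), where 18.8% of genes passed, the macrophage or antigen-presenting cell-like cells, at 162 and 257 CPM, a log2 ratio of 0.66 (8.61%), and the endothelial-like cells, at 208 and 315 CPM, a log2 ratio of 0.60 (9.61%). Without the highest doublet scores the ratio was 0.49 in the macrophage or antigen-presenting cell-like and 0.56 in the endothelial-like cells, short of 1.5-fold. Other members past 1.5-fold were Hspb6 upward and Dnajb1 and Hspa1b downward in the melanocyte-like cells (15.5% of genes), Hsph1 upward in the Snhg7os-led cells (13.4%), Hspb8 upward and Cryab downward in the NK or T cell-like cells (10.0%), and Hspb1 and Dnajb1 downward in the Dpt-led fibroblast-like cells (15.0%). No member passed in the same direction in more than 3 of the 10 groups. In the melanocyte-like cells Hspb6 and Dnajb1 fell short without the highest doublet scores, at 0.56 and -0.39. The Rpe65 level of the melanocyte-like cells, given above, also differed between the libraries, and the part of RPE RNA in their ratios was not tested.

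Chaperone genes beyond the 10 members were compared between the libraries over all RPE cells. Of 64 listed genes, 59 had enough UMIs, with a median log2 ratio of -0.01. By 1.5-fold or more 0 were higher and 2 lower, near the shares of all genes (1.66% and 4.92%). The 2 were Hspa12b, an HSP70 relative, at -0.75 from 37 and 26 UMIs, and Fkbp5, an HSP90 cochaperone that glucocorticoids induce, at -0.65 from 53 and 40 UMIs. Hsf1, the heat shock factor, stood at 22.2 and 18.8 CPM in control and Dox, and Bag3, the partner of Hspb8, at 42.4 and 40.5 CPM. The constitutive HSP90 gene Hsp90ab1 was at 1337 and 1280 CPM, the HSP40 gene Dnaja1 at 266 and 264, and the mitochondrial chaperonin Hspd1 at 116 and 109. Hspa5, the HSP70 of the endoplasmic reticulum, was at 320 and 357 CPM. Cryaa, the other alpha crystallin and the more restricted to lens, had 2 UMIs in control and 1 in Dox RPE cells, and the 7 lens markers, of which Cryaa is one, summed to 9.61 and 10.8 CPM.

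**Figure D4:**
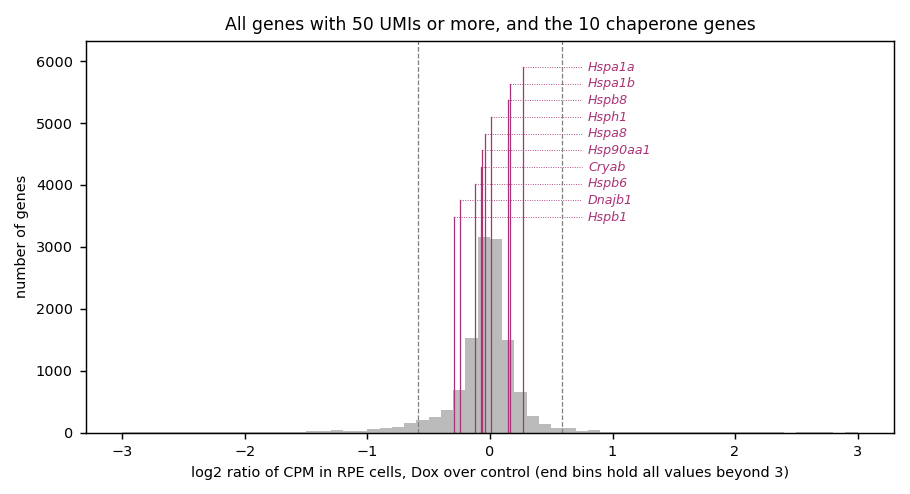
Distribution of the log2 ratio, Dox over control, of all 12774 genes with enough UMIs in RPE cells, with the 10 members marked and lines at 1.5-fold. The members lay between -0.30 and 0.27, inside the lines, as did all but 6.58% of the genes.

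Immediate early genes, which cells switch on within minutes of disturbance, dissociation included, were measured beside the inducible members. The 16 listed genes summed to 5990 and 5060 CPM in control and Dox RPE cells, and to 56969 and 59084 CPM in the Myoc-led fibroblast-like cells. In RPE cells 13 of 16 had a log2 ratio below 0, with a median of -0.24, and 1 passed 1.5-fold (Atf3, at -0.69), a share near the 6.58% of all genes. Over the RPE cells with little fibroblast RNA their sums were 2185 and 2385 CPM, 10 of 16 had a log2 ratio above 0, with a median of 0.03, and 1 passed (Klf6, at 0.65), near the 4.82% of all genes there. In the Serpina3n-low cells with little fibroblast RNA, 11 of 16 were below 0, with a median of -0.18 and sums of 2193 and 2131 CPM. The balance of directions thus depended on which RPE cells were taken, and no common direction was seen. In all RPE cells with little fibroblast RNA, Jun, a subunit of AP-1, was at 325 and 440 CPM and Fos, its partner, at 682 and 700. The part of immediate early expression in the levels of Hspa1a, Hspa1b and Dnajb1 was not tested.

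Across 24 groups (the low and high RPE cells and the 10 groups outside the RPE, in both libraries), Hspa1a and Hspa1b had the most alike levels among the 10 members, with a Pearson r of 0.92 on log2(CPM + 10). Dnajb1 was like both, at 0.81 with Hspa1a and 0.84 with Hspa1b, while Hsp90aa1 and Cryab were like each other, at 0.61, and had negative r with all of Hspb1, Hspb8, Hspa1a, Hspa1b, Hspa8, Hsph1 and Dnajb1. Over all genes at 50 CPM or more in a group, the levels most like those of Hspa1a were those of Egr2 (0.94), Jun (0.93) and Fos (0.91), 3 immediate early genes. Those most like Dnajb1 were Zfp36l1 (0.97), Ier2 (0.96) and Ece1 (0.96). Those most like Hsp90aa1 were Rom1, Rd3l and Nog (0.96, 0.96 and 0.95), those most like Cryab were Tspan7, Sema3b and Laptm4b (0.93 each), and those most like Hspa8 were Hnrnpa1, Eif4a1 and Sde2 (0.88, 0.85 and 0.83). These values describe the pattern over groups that share 2 libraries and their depth, and carry no test.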

How the data were processed

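The deposited values were raw counts of UMIs per gene and cell, from 1 control and 1 Dox library made with a 10x Genomics 5′ kit. Alignment to mm10 and counting were done by the authors in Cell Ranger (4.0.0 per the file headers; the study's methods name another version too). The annotation version was not given in the sources used here, so gene positions came from GENCODE vM21 and promoters from RefSeq (GRCm38.p6). The files held 20381 and 15649 barcodes with 117731270 and 103997248 UMIs, and 441 barcodes occurred in both.

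A kept cell had more than 500 UMIs, 200 to 6000 genes, less than 0.2 of its UMIs from mitochondrial genes, and a complexity (log10 genes divided by log10 UMIs) of more than 0.8. With R 4.3.3, Seurat 5.3.0 and sctransform 0.4.2 the libraries were integrated on 2971 of 3000 features (29 members, listed genes and Serpina3n left out) and clustered with 40 components at a resolution of 0.1. Of the 11 clusters those with at least 3 markers at 10 CPM and 1 among the 10 leading genes were named. Cells with 10 or more Rpe65 UMIs were taken out of every cluster as RPE cells. The 94 control and 83 Dox cells of the RPE-like cluster below that limit entered none of the groups. They were counted among all cells outside the RPE.

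UMIs were summed per group in Python (3.11.15; numpy 2.4.6; pandas 2.3.3; intervals with scipy 1.17.1). CPM have exact Poisson, shares Clopper-Pearson and ratios exact conditional binomial intervals at 95%. A gene was called at 1.5-fold with at least 50 UMIs over both groups. The ratio and interval steps were run on simulated Poisson counts with known fold changes, which held no spread between cells. Scrublet in scanpy 1.11.5 called 13.6% of control but only 1 cell of Dox, so that it did not work there. Doublets were limited only by the gene maximum, and leaving out the highest scores (3263 control and 1911 Dox cells) was an alternative. Figures were drawn with matplotlib 3.10.9.

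The 10 members, the gene lists and the markers were chosen with earlier results of these data known. The members are all named. Of the lists, genes past 1.5-fold in RPE cells and Hspa5, Hsp90ab1, Hsf1, Bag3, Dnaja1 and Hspd1 are named, and Jun, Fos and Cryaa were added after their values were seen. The alternatives were other limits on mitochondrial share, genes, doublets, Rpe65, Serpina3n, UMIs and fold, membership of the RPE-like cluster, CPM without mitochondrial genes, centring, the mean of the cells' own CPM, cells thinned to 2000 UMIs and, added later, RPE cells with fibroblast markers under 500 CPM.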

Additional observations from a re-analysis of the deposited data

How the results depend on the processing

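Of the log2 ratios and levels of single members recomputed under the alternatives, 1020 stayed within their counting interval, 312 moved out of it with the same sign or without a call and 4 called ratios changed sign. The count of members higher in RPE than in other cells stayed at 3 in both libraries under each alternative run for it. Members past 1.5-fold in RPE cells, Dox over control, went from 0 to 1 without the highest doublet scores (Hspa1b), 1 with thinned cells (Hsph1) and 2 with little fibroblast RNA. In Serpina3n-low cells they went from 0 to 1 with thinned cells and to 1 with little fibroblast RNA. In Serpina3n-high cells they went from 3 to 1 with no limit on genes (Hspa1a left), 5 without doublet scores, 1 at 2-fold and 5 with little fibroblast RNA. For high over low cells they went from 6 to 2 at 2-fold in control, and in Dox from 1 to 2 without doublet scores, 2 with the split at 500 or at 2000 CPM, 2 by the mean of the cells' own CPM, 0 at 2-fold and 4 with little fibroblast RNA (Hspb1, Hspb8, Hspa1b and Hsp90aa1). The members that passed also changed under further settings. In Serpina3n-high cells, Dox over control, Hspb1 (-1.06) also passed with the split at 500 CPM and Hsph1 (-0.97) with the split at 2000 CPM. Dnajb1 (0.63) also passed within the RPE-like cluster. With thinned cells Hspa8 (-0.82) passed, while Hspb6 and Hspa1a did not. For high over low cells, Hspb1, Dnajb1 and Hsp90aa1 in control and Hsp90aa1 in Dox fell short after centring. In control Hspb8 (0.88) and Hspa1b (0.86) also passed without the highest doublet scores.

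At 2-fold the counts went to 0 from 3 in melanocyte-like, 1 in Snhg7os-led, 1 in macrophage or antigen-presenting cell-like, 2 in NK or T cell-like, 1 in endothelial-like, 2 in Dpt-led fibroblast-like and 1 in Schwann-like cells. Without doublet scores they were 0 in Snhg7os-led, 2 in smooth muscle-like (from 0) and 2 in Schwann-like cells. With thinned cells they were 0 in Snhg7os-led, 1 in NK or T cell-like, 2 in endothelial-like, 1 in Dpt-led and 2 in Schwann-like cells. With the mean of the cells' own CPM they were 0 in Snhg7os-led, 2 in macrophage-like, 4 in endothelial-like, 1 in Dpt-led and 2 in Schwann-like cells. At 20 UMIs they were 2 in Snhg7os-led, 2 in endothelial-like, 4 in Dpt-led and 3 in Schwann-like cells. Centring gave 0 in Snhg7os-led and 2 in endothelial-like cells, and CPM without mitochondrial genes gave 0 in Snhg7os-led cells.

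The log2 ratio of Hspa1a in Serpina3n-high cells, Dox over control, turned to -0.38 with thinned cells, and its control ratio of high over low cells to 0.36. That of Hspb1 in control turned to 0.026 without doublet scores and 0.68 with the split at 500 CPM. The causes were not tested. The control ratios rest on 15 Serpina3n-high cells, with 5 UMIs of Hspa1a and 35 of Hspb1. No value came from Hspa1a at the split of 2000 CPM in control, and the limits on genes, Rpe65 and Serpina3n were not varied outside the RPE, since cells past the gene limit were not clustered. No paired analysis was possible because each condition had 1 library with no replicate number.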
